A study of Mus musculus with 3 samples.

Results

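The regions described here are autosomal broad H3K4me3 peaks that overlapped no PRDM9-independent region and contained no narrow peak centre. There were 8103 of them, which was 13.2% of the 61524 autosomal PRDM9-dependent broad peaks, and 98334 broad peaks were listed in the whole series. The other 53421 PRDM9-dependent broad peaks held at least 1 centre and served as the comparison group. When a centre counted only if its coverage exceeded the input in ChIP replicate 1, 12826 regions had none, and with ChIP replicate 2 there were 10494. Both the absence of a centre and the absence of overlap were used to choose the regions and are not findings. The counts come from H3K4me3 ChIP-seq of whole adult testis, with 2 ChIP libraries and 1 input library, all from (C57BL/6J x CAST/Eij)F1 males with the Prdm9 genotype Humanized/CAST. In the humanised allele, the zinc-finger array of the C57BL/6J gene was replaced by that of the human PRDM9 B allele, and the other allele came from CAST. There was a single condition, so no genotype or treatment could be compared. The methods name 2 littermates with a testis from each, whereas the design text names the testes of a single male, so the spread between the libraries may be technical.

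PRDM9 is a meiotic methyltransferase that binds DNA through a zinc-finger array. It deposits trimethylation of histone H3 lysine 4 (H3K4me3) on nucleosomes next to the bound motif, and some bound sites become the hotspots of programmed double-strand breaks. The array differs between alleles, so the human and CAST arrays bind different motifs. H3K4me3 is also found at active promoters whichever Prdm9 allele is present, and the PRDM9-independent regions were the authors' set of such sites, namely peaks that mice carrying non-overlapping Prdm9 alleles had in common. Here, PRDM9-dependent means only that a region was not in that set. Whole testis mixes germ cells of all stages with somatic cells, so fewer cells carrying a mark and less of the mark per cell cannot be told apart.

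Broad and narrow peaks came from the same libraries at different resolution. Broad peaks were described by the authors as merged adjacent bins of 100 bp in which their likelihood-ratio test found enrichment. The smallest gap between broad peaks was 600 bp, so a wide interval may include bins that did not pass. Narrow peaks were tested at each base, at a stricter p threshold than the bins, and reduced to well-separated centres. A broad peak without a centre is therefore an interval that passed the more lenient test by bin but in which no base was kept as a centre under the stricter one. The broad peaks were deposited as positions only, so the coverage inside these regions was not measured here, and the coverage values below belong to the nearest narrow centre. The fragments counted at all autosomal centres summed to 17369847 in ChIP replicate 1, 18817809 in ChIP replicate 2 and 1228853 in the input. The median centre had 26, 31 and 8 fragments, respectively.

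The sequences of the 3 regions farthest from any narrow centre show what such isolated intervals look like. They were read from the plus strand of GRCm38.p6, which has the chromosome lengths of mm10. Capitals mark matches to the human PRDM9 13-mer CCNCCNTNNCCNC or to its 7-letter core CCTCCCT on either strand, and these 3 held none.
chr7:20832901-20833000: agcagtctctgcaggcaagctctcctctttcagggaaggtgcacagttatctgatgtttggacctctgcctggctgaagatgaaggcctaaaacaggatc
chr7:8862401-8862600: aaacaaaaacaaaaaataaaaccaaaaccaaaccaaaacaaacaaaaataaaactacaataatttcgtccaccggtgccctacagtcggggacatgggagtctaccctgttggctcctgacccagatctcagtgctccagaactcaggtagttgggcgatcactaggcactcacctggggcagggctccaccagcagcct
chr10:47758601-47758700: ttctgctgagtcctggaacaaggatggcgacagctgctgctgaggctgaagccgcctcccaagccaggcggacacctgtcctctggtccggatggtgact
The first lay between genes, 12034 bp from the start of the vomeronasal receptor gene Vmn1r115, and 90% of its bases were soft-masked as repeats. The second lay in an intron of Gm20482, 68934 bp from the start of Vmn2r40, and 31% was soft-masked. The third lay 2030115 bp from the nearest protein-coding start, that of the glutamate receptor gene Grik2, and 92% was soft-masked.

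The narrowest regions that held the 13-mer were all 100 bp wide. The following 3 are shown because the motif lay inside the interval itself, and the first 3 in genome order were taken.
chr1:10014701-10014800: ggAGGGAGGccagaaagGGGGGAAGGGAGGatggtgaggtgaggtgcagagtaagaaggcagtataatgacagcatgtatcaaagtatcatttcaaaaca
chr1:14363501-14363600: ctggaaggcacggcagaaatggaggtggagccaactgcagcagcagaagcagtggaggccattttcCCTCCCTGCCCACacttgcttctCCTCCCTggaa
chr1:69326601-69326700: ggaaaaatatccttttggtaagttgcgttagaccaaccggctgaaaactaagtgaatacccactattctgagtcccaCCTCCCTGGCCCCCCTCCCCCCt
The first was 1509 bp from its nearest narrow centre and had its 13-mer on the minus strand. The second was 13105 bp from a centre and held the core a second time outside the 13-mer. The third was 23171 bp from a centre and held 2 overlapping matches. A match is a description of the letters and not evidence of binding.

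The regions without a centre were short. Their median width was 100 bp, which is a single bin, against a median of 800 bp for PRDM9-dependent broad peaks with a centre. A single bin made up 5417 regions (66.9%), 1404 (17.3%) spanned 200 bp and 651 (8.03%) spanned 300 bp. Among peaks with a centre, 1357 (2.54%) were a single bin. Only 222 regions (2.74%) were wider than 500 bp, against 36694 peaks with a centre (68.7%). The 8103 regions covered 1356200 bp, or 2.60% of all bases in autosomal PRDM9-dependent broad peaks. Among all PRDM9-dependent peaks of a single bin, 80.0% had no centre, and this share was 30.3% at 200 bp, 13.6% at 300 bp and 3.55% at 500 bp. A wider interval has more bases in which a centre can fall, so width is tied to the rule and was not tested.

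**Figure D1:**
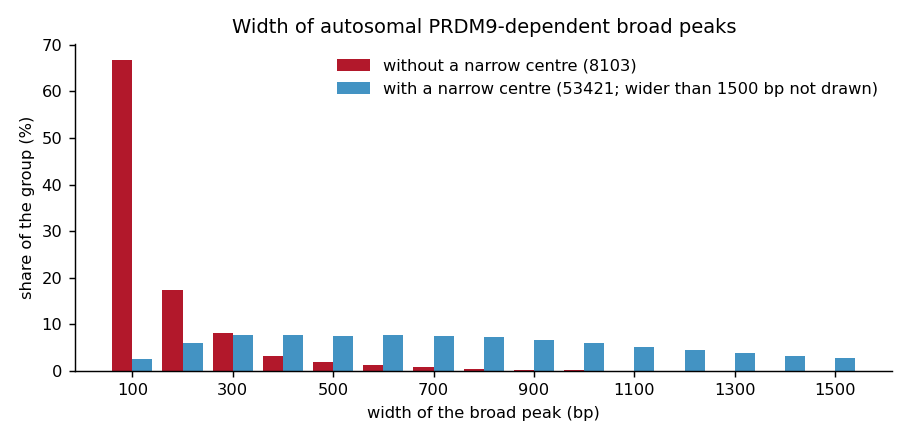
Width of autosomal PRDM9-dependent broad peaks in bp on the x axis and the share of each group in percent on the y axis. Bars at 100 bp reach 66.9% for peaks without a narrow centre and 2.54% for peaks with one, whose bars stay under 8% at every width drawn.

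The share without a centre was similar between autosomes. It ranged from 11.75% on chromosome 18 to 14.68% on chromosome 7. Among PRDM9-independent autosomal broad peaks, 454 of 33825 (1.34%) had no centre. These independent peaks differ in width and coverage from the dependent ones, so the shares are given side by side without a test.

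The 5 widest regions reached from 1200 to 1500 bp. The widest, chr5:15483901-15485400, was intergenic and lay 243 bp from a centre that had 191 fragments in ChIP replicate 1, 200 in replicate 2 and 50 in the input. Equally wide was chr5:38486501-38488000 in an intron of Slc2a9, a urate transporter gene. The centre 107 bp from it had 59 fragments in ChIP replicate 1, 58 in replicate 2 and 56 in input chromatin, so the ChIP and input coverage there were nearly equal. The third, chr2:104088001-104089400 in an intron of Cd59b, was 99.4% soft-masked and lay 7 bp from a centre with 6, 8 and 4 fragments. The fourth, chr4:128901501-128902800 in an intron of Trim62, lay 1951 bp from a centre with 31, 42 and 14 fragments. The fifth, chr6:69103801-69105000, was intergenic and lay 8235 bp from a centre with 20, 15 and 2 fragments. In the first 3, the nearest centre lay outside every broad peak. Wide regions without a centre were thus found beside both high and low input coverage.

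Most regions lay more than 1000 bp from any narrow centre. The median distance from the interval to the nearest centre was 3866 bp, with quartiles of 1334 and 11850 bp. A group of 925 regions (11.4%) lay within 100 bp of a centre, 159 lay at 101 to 500 bp and 516 at 501 to 1000 bp. Beyond that, 1136 (14.0%) lay at 1001 to 2000 bp, 3074 (37.9%) at 2001 to 10000 bp and 2293 (28.3%) farther away, of which 79 were more than 100000 bp from any centre. The number of regions per 100 bp of distance was high in the first step, low near 500 bp and higher again from about 700 bp on. In the files, no 2 broad peaks were closer than 600 bp and the closest autosomal narrow centres were 857 bp apart, and the distances to centres and to other broad peaks lie within these limits.

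**Figure D2:**
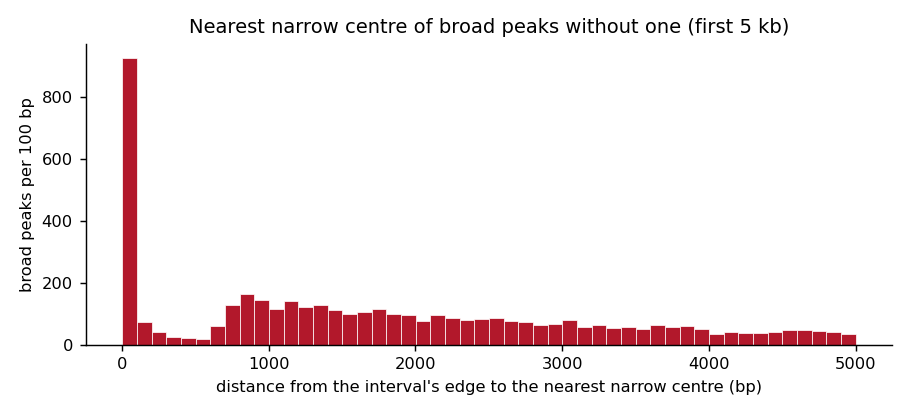
Number of broad peaks without a narrow centre per 100 bp (y axis) by the distance in bp from the interval's edge to the nearest narrow centre (x axis), up to 5 kb. The first bar holds 925 peaks, and the counts fall toward 500 bp and rise again before 1000 bp.

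The narrow centres next to the closest regions had low coverage. For the 925 regions within 100 bp of a centre, the median coverage at that centre was 7 fragments in ChIP replicate 1, 8 in replicate 2 and 4 in the input. At 501 to 1000 bp the medians were 9, 11 and 5 fragments, at 1001 to 2000 bp 19, 22 and 7, and at 2001 to 10000 bp 36, 43 and 9. Beyond 100000 bp they were 15, 16 and 5 fragments. Both ChIP replicates thus gave the same order of distance classes, with the input lowest in each class. All centres within 500 bp lay outside every broad peak, because a centre in another broad peak had to be farther away than the smallest gap. The share of nearest centres that were PRDM9-independent was 0.432% within 100 bp, 7.75% at 501 to 1000 bp and 47.4% at 2001 to 10000 bp. These classes follow from the rule and from the spacing of peaks, and several regions can share a centre, so no test was made.

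**Figure D3:**
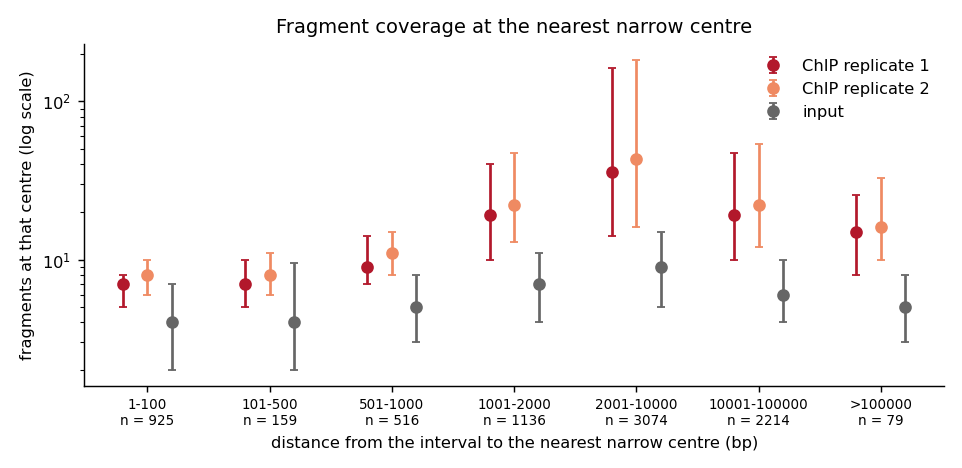
Fragments at the nearest narrow centre (y axis, log scale) by its distance in bp from the interval (x axis), with the number of broad peaks in each class below. Points are medians and bars run from the first to the third quartile. The medians of both ChIP replicates stay at 7 to 8 fragments up to 500 bp and are highest at 2001 to 10000 bp.

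There were 2172 autosomal PRDM9-dependent narrow centres that lay outside every broad peak, and 921 of them (42.4%) were within 100 bp of a region without a centre. Their median coverage was 7 fragments in ChIP replicate 1, 8 in replicate 2 and 4 in the input. The 54634 centres inside PRDM9-dependent broad peaks had medians of 15, 18 and 6 fragments. Coverage was above the input in both ChIP replicates at 65.8% of the centres outside and at 88.4% of those inside. Broad peaks were called from the same libraries, so lower coverage outside them is tied to that call and was not tested. Centres outside every broad peak thus often lay beside a region without a centre, while only 11.4% of the regions had a centre within 100 bp.

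The regions were often close to another broad peak. Another broad peak lay within 1 kb of 2068 regions (25.5%), against 4415 (8.27%) of the peaks with a centre. The difference within autosomes was 17.3 ± 2.08 percentage points (mean ± SD, n = 19 autosomes) and was positive on all 19 (exact sign-flip permutation test over autosomes, two-sided, p = 3.815e-06, the smallest that this test can give, adjusted p = 9.265e-06). Between peaks of a single bin in both groups, the shares were 21.9% of 5417 and 8.70% of 1357, and the difference was 13.3 ± 4.55 percentage points, again positive on all 19 autosomes. The excess was greatest at the smallest gap. At 600 bp there were 771 regions (9.52%) and 1030 peaks with a centre (1.93%), while at 1500 bp the shares were 1.17% and 1.13%. The planned distance of 500 bp gave 0 in both groups, because no gap in the files was that small, and 1 kb was read in its place.

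**Figure D4:**
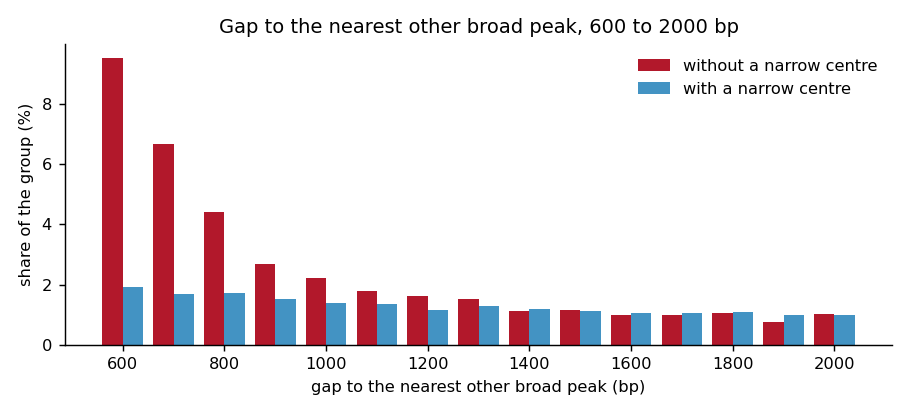
Gap in bp from a broad peak to the nearest other broad peak of any class (x axis) and the share of each group in percent (y axis). The share of peaks without a narrow centre falls from 9.52% at 600 bp to 1.17% at 1500 bp, while that of peaks with one goes from 1.93% to 1.13%.

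The minimum separation of centres can leave no place for a further centre beside a strong peak. Of the 8103 regions, 6806 (84.0%) had some base at least 1 kb from every centre. Among these, 1761 (25.9%) had another broad peak within 1 kb, and the difference from peaks with a centre was 17.7 ± 2.41 percentage points, positive on 19 of 19 autosomes. This restriction was made among the regions and not among the 53421 peaks with a centre, and some centres lay closer than 1 kb, so the part of the minimum separation in the difference was not tested. Over all regions the difference was 11.3 percentage points when only centres above the input in ChIP replicate 1 were counted, 13.8 with ChIP replicate 2, and 7.75 when only centres with a deposited p under 1e-10 were counted, each positive on 19 of 19 autosomes.

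The neighbours within 1 kb were of different classes. For 1019 of the 2068 regions (49.3%) the nearest broad peak was PRDM9-independent, with a median width of 3600 bp. For 857 (41.4%) it was a PRDM9-dependent peak with a centre, with a median width of 800 bp. For 192 (9.28%) it was another region without a centre, with a median width of 100 bp. For peaks with a centre, the corresponding shares of 4415 neighbours were 32.7%, 47.1% and 20.2%. The median region in each of these classes was a single bin.

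The regions also lay closer to the PRDM9-independent set itself. A PRDM9-independent region was within 1 kb of 660 regions (8.15%) and of 783 peaks with a centre (1.47%). The difference was 6.62 ± 1.65 percentage points and was positive on 19 of 19 autosomes (exact sign-flip permutation test, adjusted p = 1.017e-05). Within 5 kb the shares were 28.3% and 17.4%. Among peaks of a single bin, the shares within 1 kb were 6.87% and 1.77%. Among regions with room for a centre, a restriction not made among peaks with a centre, the share was 8.99%. The difference within 1 kb was 4.34 percentage points when centres had to exceed the input in ChIP replicate 1 and 2.84 when only centres with a deposited p under 1e-10 were counted. How much of this nearness reflects the edges of promoter marks was not tested.

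The regions fell mainly in introns and between genes. By the midpoint, 3938 (48.6%) lay in introns, 3491 (43.1%) between genes, 242 (2.99%) in coding exons, 154 (1.90%) in UTRs and 278 (3.43%) in other exons. For peaks with a centre, the shares were 45.1%, 44.7%, 4.08%, 2.22% and 3.86%. The share in an exon of any kind was 8.32% against 10.2%, a difference of -1.74 ± 1.70 percentage points, lower on 17 of 19 autosomes (exact sign-flip permutation test, adjusted p = 0.0008656). By any overlap in place of the midpoint, the shares were 10.95% and 20.95%, a difference of -9.82, with the wider peaks of the comparison group covering more bases. The direction by midpoint rested on how centres were counted. When only centres with more coverage in ChIP replicate 2 than in the input were counted, the difference was +0.582. With centres above the input in ChIP replicate 1 it was +0.737. The share in any gene body was 56.9% against 55.3%, a difference of 1.71 ± 2.39 percentage points (adjusted p = 0.008333), which did not pass with an overlap of any base in place of the midpoint (0.644, p = 0.2536, exact sign-flip permutation test) and turned to -0.973 with centres of a deposited p under 1e-10.

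Gene starts were rarely involved in either group. Peaks overlapping a PRDM9-independent region, a set that includes sites at active promoters, were left out of both groups by the rule. A low share at gene starts is therefore tied to the rule in both. The midpoint lay within 1 kb of a protein-coding gene start in 102 regions (1.26%) and in 973 peaks with a centre (1.82%). The difference was -0.546 ± 0.522 percentage points, lower on 18 of 19 autosomes (exact sign-flip permutation test, adjusted p = 0.0007813). Within 2 kb the shares were 2.68% and 2.70%, and the mean of the differences within autosomes was 0.0471, which did not pass the test (p = 0.8371, exact sign-flip permutation test). The median distance to the nearest protein-coding start was 40578 bp for the regions and 45253 bp for peaks with a centre, a difference of -0.06 ± 0.05 on the log10 scale (adjusted p = 0.0002374, exact sign-flip permutation test). Between peaks of a single bin, neither the share within 1 kb nor the distance passed (p = 0.3771 and p = 0.8922, exact sign-flip permutation tests), and the share within 1 kb did not pass when centres had to exceed the input in a single ChIP replicate (-0.266 with replicate 2 and -0.196 with replicate 1). More than 100 kb from any protein-coding start lay 2435 regions (30.1%) and 31.0% of peaks with a centre.

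The 5 regions nearest to a protein-coding gene start had their midpoints 15 to 27 bp from it. They were chr10:115569901-115570100 at A930009A15Rik, inside the longer gene Lgr5, chr19:53589001-53589100 at Nutf2-ps1, chr2:178430501-178430600 at the cadherin gene Cdh26, chr7:43544401-43544500 at Cd33, a sialic acid-binding lectin gene, and chr14:42993601-42993700 at Gm8082. The first 3 midpoints lay in UTRs. Their nearest narrow centres were 5342 to 21302 bp away. At the Nutf2-ps1 region, the centre 11468 bp away was PRDM9-independent and had 1907, 2233 and 30 fragments in ChIP replicate 1, ChIP replicate 2 and the input. At the Cdh26 region, the centre was PRDM9-dependent and had 41, 59 and 9 fragments. These starts therefore carried a short broad peak with no centre nearby.

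Of the regions at gene starts that overlap no UTR, the 2 nearest to a start are shown, as start-site sequence with a broad peak but no centre. The first is the region at Gm8082 and the second lies 78 bp from the start of Serpina3n, a serine protease inhibitor gene.
chr14:42993601-42993700: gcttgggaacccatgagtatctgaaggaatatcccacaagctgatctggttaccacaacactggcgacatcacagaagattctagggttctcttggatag
chr12:104406601-104406700: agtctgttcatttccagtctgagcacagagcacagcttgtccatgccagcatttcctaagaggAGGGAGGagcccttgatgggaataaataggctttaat
The region at Gm8082 held neither motif, and the one at Serpina3n held the core once, on the minus strand. Their GC content was 47% in both, and they held 1 and 0 CpG dinucleotides.

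In total, 3019 of 20807 autosomal protein-coding genes had the midpoint of at least 1 region in the gene body, and 2279 of these had exactly 1. The median length of the genes with a region was 71.4 kb, against 17.6 kb for all protein-coding genes. Genes with 5 or more numbered 37. The gene models with most midpoints were often very long. Gm20388, annotated over 4435 kb, held 33, besides 179 peaks with a centre, and Fgfr2, a fibroblast growth factor receptor gene annotated over 2961 kb, held 8 besides 81. Csmd1 (1643 kb) held 9 besides 10, Opcml (1135 kb) held 7 besides 16, and Sox5 (954 kb), which encodes a transcription factor, held 8 besides 24.

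Among the shorter genes, 4 held more regions without a centre than peaks with one. Gm5622 (110 kb) held 9 besides 4, which was 81.7 regions per Mb against 3.29 per Mb over the autosomes. Tmem135 (265 kb) held 9 besides 7. The lincRNA gene 4930568A13Rik (60.2 kb) held 6 besides 3. Cyp19a1 (102 kb), which encodes aromatase, the enzyme that converts androgens to oestrogens, also held 6 besides 2. Gucd1 (167 kb), by contrast, held 10 besides 20 peaks with a centre. These genes were ranked by the number of regions, so the counts are a description without a test.

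For comparison with the gene lists below, 14.5% of all autosomal protein-coding genes held a region, and no list was tested against that share. The rule left out peaks that overlapped a PRDM9-independent region, a set that includes sites at active promoters. Only 102 regions had their midpoint within 1 kb of any protein-coding start, so few starts of any gene list could have one. The share of all genes holding a peak with a centre was not computed, so those counts have no reference share. Of 40 genes of recombination and the chromosome axis, 38 were matched on the autosomes. Of these, 3 held a region and 21 held a PRDM9-dependent broad peak with a centre. None of the 38 had a region within 1 kb of its start. In Dmc1, which encodes the meiotic strand-exchange protein, a region of 100 bp, chr15:79582101-79582200, lay in an intron 5966 bp from a centre with 44, 33 and 5 fragments in ChIP replicate 1, ChIP replicate 2 and the input. In Rnf212, whose product acts in crossover designation, chr5:108765701-108766000 lay 1775 bp from a PRDM9-independent centre with 32, 28 and 2 fragments. In Zcwpw2, which encodes a histone reader protein, chr9:117902401-117902500 lay 45 bp from a centre with 16, 4 and 11 fragments, where the 2 ChIP replicates fell on opposite sides of the input.

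Among 9 matched Sertoli cell genes, 2 held a region and 6 held a peak with a centre. Both encode transcription factors. The region in Gata4, chr14:63210401-63210500, lay 16652 bp from a PRDM9-independent centre with 267, 315 and 18 fragments, and that in Dmrt1, chr19:25602901-25603300, lay 1888 bp from a dependent centre with 9, 13 and 8 fragments. None of 7 Leydig cell genes and none of 9 spermatid genes held a region, while 3 and 1 of them held a peak with a centre. No start of the marker genes had a region within 1 kb.

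The regions had fewer CpG dinucleotides than peaks with a centre, while the direction of a small GC difference depended on how centres were counted. The central 300 bp, also used below, is a fixed window around the midpoint, so it includes flanking sequence in regions of 100 or 200 bp. In the central 100 bp, which lies inside every region, the differences were -0.979 percentage points for GC and -0.309 for CpG number. They were 5.81 percentage points for the masked share and -0.591 for the 13-mer. In the central 300 bp, the mean GC content was 47.0% against 48.1%, a difference of -1.13 ± 0.407 percentage points, lower on 19 of 19 autosomes (exact sign-flip permutation test, adjusted p = 1.017e-05). Between peaks of a single bin the difference was -1.56. The direction of the GC difference turned when centres had to exceed the input in a single ChIP replicate. It was +0.413 with replicate 2 (adjusted p = 0.0003391) and +0.833 with replicate 1 (adjusted p = 1.744e-05, exact sign-flip permutation tests). Both reversed differences passed the test. The number of CpG dinucleotides per 300 bp was 4.13 against 5.05, a difference of -0.933 ± 0.210, lower on all 19 autosomes (adjusted p = 1.017e-05, exact sign-flip permutation test). It stayed lower under both of these counts, at -0.341 and -0.162, and between peaks of a single bin, at -0.661.

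**Figure D5:**
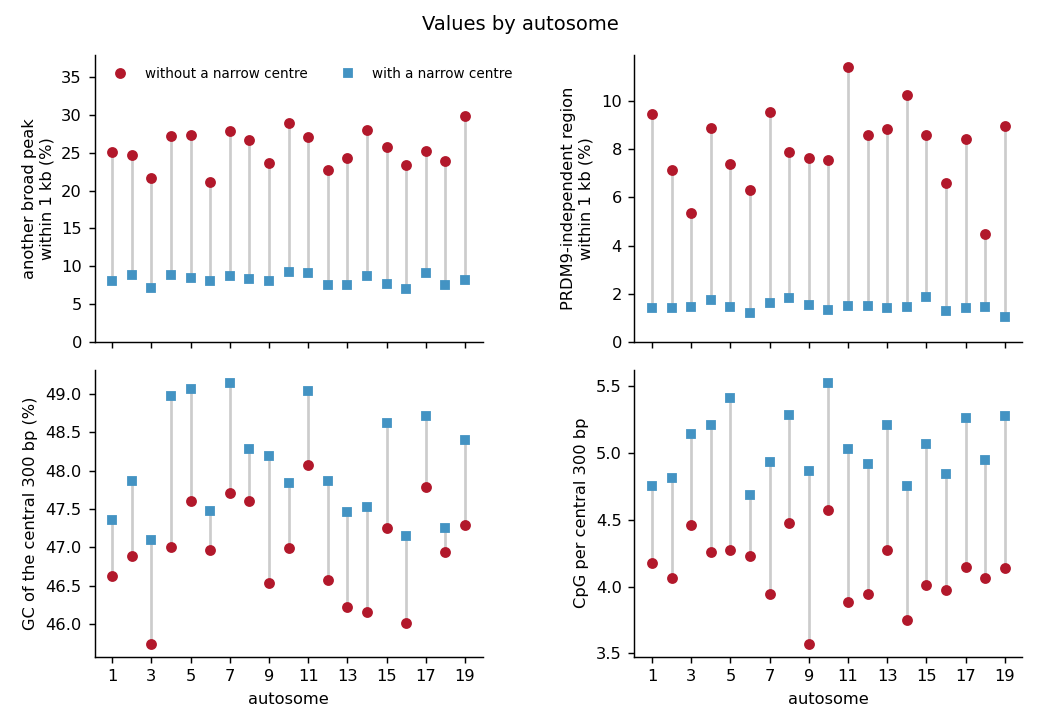
Values of each of 19 autosomes (x axis) for broad peaks without a narrow centre (circles) and with one (squares), joined by a line. The shares within 1 kb of another broad peak and of a PRDM9-independent region are higher on all 19 autosomes, and GC content and CpG number of the central 300 bp are lower on all 19. The lower panels do not start at 0.

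More of the sequence was soft-masked as repeats or low complexity. The mean masked share of the central 300 bp was 28.3% in the regions and 22.6% in peaks with a centre, a difference of 5.65 ± 2.21 percentage points, higher on 18 of 19 autosomes (exact sign-flip permutation test, adjusted p = 1.744e-05). Between peaks of a single bin, it was 28.5% and 27.1%, and the difference of 0.990 did not pass (p = 0.3415, exact sign-flip permutation test). When centres had to exceed the input in a single ChIP replicate, the difference was 3.89 with replicate 2 and 2.73 with replicate 1. At widths of 200 to 500 bp in both groups it was 3.04. The whole interval was masked in 635 regions (7.84%) and in 557 peaks with a centre (1.04%). No base was masked in 2894 regions (35.7%) and in 4561 peaks with a centre (8.54%). Both extremes were thus more frequent in the shorter regions, and these shares were not adjusted for width. By distance to the nearest centre, the masked share did not rise steadily. It was 25.1% for the 925 regions within 100 bp, 31.1% at 101 to 500 bp and 29.0% at 501 to 1000 bp. At 1001 to 2000 bp it was 27.7%, at 2001 to 10000 bp 25.6% and at 10001 to 100000 bp 32.4%. The 79 regions more than 100000 bp from any centre had 49.4%.

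The human PRDM9 13-mer was not more frequent in the regions. It was present in the central 300 bp of 429 regions (5.29%), of 3602 peaks with a centre (6.74%) and of 6.19% of all autosomal broad peaks. The difference between the groups was -1.46 ± 0.984 percentage points, lower on 18 of 19 autosomes (exact sign-flip permutation test, adjusted p = 2.289e-05). Between peaks of a single bin the shares were 5.37% and 6.56% and the difference of -1.22 did not pass (p = 0.1552, exact sign-flip permutation test). The core, which lies within some of the 13-mer matches, was found in 11.7% of the regions, 12.9% of peaks with a centre and 12.8% of all autosomal broad peaks. No CAST motif was searched. The last 10 Mb of the autosomes held 750 regions (9.26%) and 10.5% of peaks with a centre, a difference of -1.26 ± 2.02 percentage points (adjusted p = 0.01585, exact sign-flip permutation test). This did not pass at the same width in both groups (-0.746 at 100 bp and -0.751 at 200 to 500 bp), nor with centres above the input in a single ChIP replicate (-0.677 with replicate 2 and -0.424 with replicate 1).

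Grouped by their surroundings, the regions fell into 3 kinds, defined after the distances were seen. The 925 regions within 100 bp of a centre had a median width of 100 bp and a median distance of 26 bp to that centre, and 58.3% lay in gene bodies. A further 1990 regions (24.6%) had another broad peak within 1 kb, of which 64.3% lay in gene bodies, at a median of 20452 bp from a protein-coding start, and 57.1% were a single bin. The remaining 5188 regions (64.0%) had neither. Of these, 53.9% lay in gene bodies at a median of 49280 bp from a start, the median distance to a centre was 8272 bp and 69.6% were a single bin. The 13-mer was present in 4.65%, 4.72% and 5.63% of the 3 kinds, and the mean GC content was 47.8%, 47.0% and 46.8%.

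The 5 regions farthest from a centre were 307532 to 760048 bp away. Besides the 3 whose sequences are given above, they were chr10:47742301-47742400, 315736 bp from a PRDM9-independent centre with 164, 183 and 8 fragments, and chr8:21663601-21664000, 1996 bp from the start of Defa34, an alpha-defensin gene. The nearest other broad peak of both chromosome 10 regions was 16200 bp away, and that of the region at chr7:20832901-20833000 was 759800 bp away. Vomeronasal receptor and alpha-defensin genes belong to families of similar copies, and how uniquely fragments could be placed there was not measured here.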

How the data were processed

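H3K4me3 ChIP-seq of whole testis was deposited for a single group, as 2 ChIP libraries with 1 input. Per the labels, reads were processed with BWA, SAMtools and bedtools on mm10, and the methods add Stampy and the removal of duplicates, improper pairs and unplaced pairs. The authors deposited fragment counts of each library at narrow peak centres, not normalized, together with the enrichment, a ratio over background estimated by likelihood from both replicates, and the likelihood-ratio p-value of each peak. Peaks were found jointly, so the replicates give no separate peak sets. Broad peaks and PRDM9-independent regions were deposited as positions, without coverage. The deposited enrichment ratios were not used for any printed value, and the p-values only for an alternative. The deposited files hold no library totals. The fragments summed over centres depend on enrichment as well as on depth, so they are not a measure of depth.

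A broad peak counted as PRDM9-independent when it overlapped an independent region by at least 1 bp, and as centred when a narrow centre lay inside it. Genes came from GENCODE vM21 and sequence from GRCm38.p6, by the midpoint of each peak unless stated. Values are means, medians or shares over all peaks of a group. Each difference is the mean over 19 autosomes of regions minus centred peaks, ± SD, tested by an exact two-sided sign-flip test over the autosomes with all 524288 sign patterns. Autosomes are parts of the same libraries and not replicates of animals. P-values were adjusted by Benjamini-Hochberg over 16 tests, and those of the gap at 1 or 2 kb within the same family. The planned tests of coverage at the nearest centre within 1 kb (log2 of fragments plus 1) were computed, but no p is given, since the rule keeps strong centres out of the regions. The distance functions and the test were checked on simulated data with Python 3.11.15 and numpy 2.4.6.

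Regions named are the 5 widest, the 5 farthest from a centre and the 5 nearest to a protein-coding start. Genes named are the 10 whose bodies hold most midpoints and all genes of 4 lists (recombination, Sertoli, Leydig, spermatid) with a region. The regions, lists and tests were chosen with earlier results of these data known. Sequences in UTRs are not shown, and the next region was taken.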

Additional observations from a re-analysis of the deposited data

How the results depend on the processing

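The alternatives changed the centres or peaks counted, the widths compared, the windows or the annotation. The numbers below are differences of regions minus centred peaks in percentage points unless another quantity is named. Nearness to PRDM9-independent regions and fewer CpG dinucleotides kept their direction and side of the threshold under every alternative run, but not their size. Nearness within 1 kb went from 6.62 to 4.34 with only centres above the input in ChIP replicate 1. It went to 2.84 with centres of p under 1e-10. The masked share went from 5.65 to 2.73 with only centres above the input in ChIP replicate 1. It was 3.04 at widths of 200 to 500 bp, and exons by any overlap went to -9.82. Under these counts, broad peaks and centres were still those found jointly in both replicates. GC went from -1.13 to -0.556 with centres of p under 1e-10 and to -2.31 at widths of 200 to 500 bp, where gene bodies went from 1.71 to 3.46.

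Counting only centres above the input in a single ChIP replicate, the number of regions was 10494 to 12826, their share 17.1 to 20.8%, their median width 100 to 200 bp and the median distance to a centre 4961 to 5778.5 bp. The exon difference then was 0.582 to 0.737, that of GC 0.413 to 0.833, that of gene starts within 1 kb -0.266 to -0.196 and that of the last 10 Mb -0.677 to -0.424. The first pair reversed and the second no longer passed. The reversed GC difference passed under both counts, and that of exons only with replicate 1. Counting only centres with a deposited p under 1e-10 gave 23870 regions (38.8%) with a median width of 300 bp and a median distance of 8744.5 bp. The gene body difference then reversed to -0.973, the log10 distance to a gene start was -0.0068, and the log2 input coverage at the nearest dependent centre reversed to 0.091.

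With peaks of 100 bp in both groups, chosen after seeing the data, the differences that no longer passed were gene bodies 2.51, exons -0.699, gene starts within 1 kb -0.338, log10 distance to a start -0.0032, masked sequence 0.990, the 13-mer -1.22 and the last 10 Mb -0.746. With widths of 200 to 500 bp these were gene starts -0.292, the 13-mer -0.680 and the last 10 Mb -0.751. The gene body difference also no longer passed without peaks within 1 kb of an independent region (0.963), in regions with room for a centre (1.07, added later) or by any overlap (0.644). At 2 kb the gene start difference averaged over autosomes reversed to 0.0471, while the share over all peaks was still lower in the regions (2.68% against 2.70%).

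Without peaks within 1 kb of an independent region, the share of regions was 12.4% and the median distance to a centre 4557 bp. Leaving out regions with a centre within 100 bp gave 11.8% and 4940 bp, and keeping only regions with room for a centre gave 11.3% and 5444.5 bp. The difference in having another broad peak nearby was 0 at 500 bp, 17.3 at 1 kb and 18.2 at 2 kb, the last added later. At 1 kb it was 12.6 without peaks near an independent region, 23.7 at widths of 200 to 500 bp and 7.75 with centres of p under 1e-10. With centres above the input in a single ChIP replicate it was 11.3 to 13.8. It passed in each. The causes were not tested. No paired analysis was possible because there was a single group of ChIP libraries and 1 input, which share only 1 replicate number. Coverage was low at the centres within 500 bp of a region, where the ChIP medians were 7 to 8 fragments.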

Other observations

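The X chromosome, left out above, held 1767 PRDM9-dependent broad peaks, of which 321 (18.2%) had no narrow centre. Their median width was 100 bp, and 59.2% were a single bin, against a median of 700 bp for those with a centre. Another broad peak lay within 1 kb of 18.7% of those without a centre and of 7.33% of those with one. These are values of a single chromosome and were not tested against the autosomes.

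Narrow centres outside every broad peak reached very different input coverage. Among the 2172 autosomal PRDM9-dependent ones, the input had a median of 4 fragments, quartiles of 1 and 8, and a highest value of 62980. The highest input value at a dependent centre inside a broad peak was 1763 fragments.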
